A study of Mus musculus with 17 samples.

Results

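Interferons and many other cytokines signal through one short relay. A cytokine bridges a pair of receptor chains at the cell surface, the chains bring together kinases of the JAK family, and these phosphorylate STAT transcription factors, which move to the nucleus. Among the genes that STATs switch on are the SOCS genes, whose proteins bind JAKs or receptor chains and shut the relay down again, so a SOCS transcript is commonly read as a trace of recent signalling. In the heart, type I interferon and interferon-gamma act on cardiomyocytes and on resident and recruited immune cells, while STAT3 is best known there for the response to the gp130 cytokines. STAT activity depends on phosphorylation, which transcript counts do not measure.

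Of the 56748 genes in the deposited table, 9 genes of this relay were taken by their symbols. They were the receptor chains *Ifnar1* and *Ifnar2* (type I interferon) and *Ifngr1* and *Ifngr2* (interferon-gamma), the kinase *Jak2*, the transcription factors *Stat2* and *Stat3*, and the inhibitors *Socs1* and *Socs3*. All 9 passed the filter on low counts and were among the 16195 genes tested. RNA was sequenced from heart tissue of mice aged 12 to 16 months, 9 *Polg* hMut and 8 Ctrl, with 1 library per mouse. The hMut mice were Polg iMut/iMut; +/Ckmm-cre on a C57BL/6N background. Their Polg allele holds a floxed wild-type cassette that cre removes, after which the mtDNA polymerase is made with the D257A change in its proofreading domain. The cre gene is under the muscle creatine kinase promoter, so cre is made in heart and skeletal muscle cells and, by design, not in the other cells of the heart. The exact genotype of the Ctrl mice was not given in the sources used here, and no mouse was treated.

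Total counts per heart ranged from 32915159 to 46486964. Levels are given as CPM, that is reads of a gene relative to the TMM-scaled library total. *Polg*, the targeted gene, averaged 57.9 ± 6.08 CPM over the 9 hMut hearts and 34.7 ± 7.31 CPM over the 8 Ctrl hearts (SD), with 8 hMut hearts above every Ctrl heart. A total count reads neither the point mutation nor the allele, so this shows only that the *Polg* level differs between the labelled groups. The hearts were cardiac tissue by their markers, with 10 cardiomyocyte genes summing to between 47600 and 57500 CPM in Ctrl. Hearts hMut replicate 6 and hMut replicate 9 stood apart from the other hMut hearts. The cardiomyocyte sum was 39100 CPM in replicate 6 and 35800 in replicate 9, against 46700 to 56300 in the other hMut hearts. The sum of 12 myeloid markers was 1370 CPM in replicate 6, 711 in replicate 9, 332 to 442 in the other hMut hearts and 262 to 396 in Ctrl, with all 12 markers above every Ctrl heart in both. The pan-leukocyte gene *Ptprc* (CD45) reached 82.1 CPM in replicate 6 and 32.6 in replicate 9, where the highest Ctrl heart had 27.9. The sum of 12 lymphoid markers was 75.6 CPM in replicate 6 and 12.1 in replicate 9, with Ctrl hearts from 3.24 to 51. The sum of 6 fibroblast markers was 1180 CPM in replicate 6 and 995 in replicate 9 against 702 to 788 in Ctrl. That of 5 atrial cardiomyocyte markers was 702 and 450 CPM against at most 166 in Ctrl. Most of this atrial sum was *Nppa*, at 685 and 423 CPM against at most 164 in Ctrl. The paper counts *Nppa* among cardiac stress markers. *Bmp10* was also higher than in Ctrl, at 15.1 and 25.2 CPM against at most 0.371. This was common to all 9 hMut hearts, the others being at 0.605 to 17.2 CPM, so replicate 6 did not stand apart in *Bmp10*. *Myl4* (2.04 and 1.47 CPM), *Myl7* and *Sln* each lay within their Ctrl range in both hearts. Transcripts encoded by mtDNA made up 15.9% of the reads in replicate 6, the lowest share, and 20.6% in replicate 9. The other hMut hearts were at 17.8% to 23% and the Ctrl hearts at 23.5% to 30.9%. Replicate 9 thus lay among the other hMut hearts, and a lower share than in Ctrl was common to all hMut hearts. In whole tissue, more cells of a type cannot be told apart from more RNA per cell, and the part of these cell types in the values below was not tested. Fitted differences of the 9 genes and of the other named genes are therefore given with both hearts and without them.

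No gene of the 9 passed the threshold between hMut and Ctrl. At an adjusted p under 0.05 in the quasi-likelihood test of edgeR (Benjamini-Hochberg), 749 of all 16195 tested genes were called (4.62%), and 0 of the 9 were. At an unadjusted p under 0.05 the count was 2 of 9, *Ifngr1* and *Socs1*, beside 25.8% of all tested genes, and DESeq2 and limma-voom with sample quality weights each called 0 as well. Scaling on cardiomyocyte markers instead of TMM raised the median of all tested genes by 0.25 in log2 and called 38% of them, among these 6 of the 9 (*Ifnar1*, *Ifnar2*, *Ifngr1*, *Ifngr2*, *Jak2* and *Socs1*). The log2 fold change was positive for 8 of the 9, beside 8178 of all 16195 tested genes. Its median was 0.15, beside a median of 0 over all tested genes. Without replicates 6 and 9, *Stat2* (-0.06) and *Stat3* (-0.02) were negative as well. The genes did differ among hMut hearts. In replicate 6, 8 of the 9 genes were above every Ctrl heart, where 31.1% of all tested genes were. The remaining gene, *Ifngr2*, was below every Ctrl heart, as were 28.8% of all tested genes. In replicate 9, the same 8 genes were above every Ctrl heart, where 27.9% of all tested genes were. The median of the 9 genes, as log2 of CPM over the Ctrl mean, was 0.67 in replicate 6 and 0.29 in replicate 9. The other 7 hMut hearts (-0.03 to 0.11) overlapped the Ctrl hearts (-0.04 to 0.09).

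**Figure D1:**
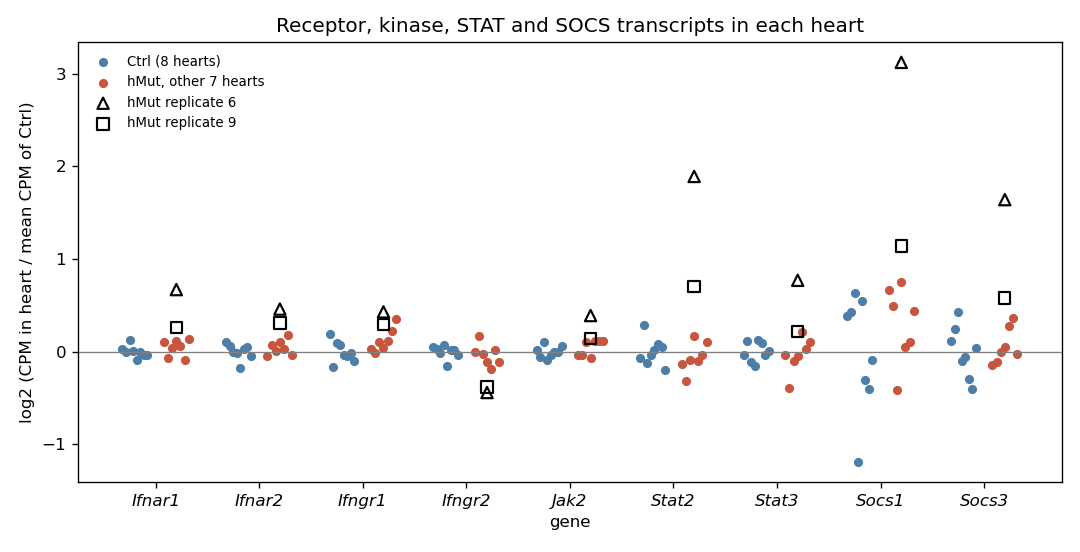
Level of each of the 9 genes in each heart, as log2 of CPM over the mean CPM of the Ctrl hearts (vertical axis), by gene (horizontal axis). Blue points are the 8 Ctrl hearts, red points 7 hMut hearts, the open triangle hMut replicate 6 and the open square hMut replicate 9; replicate 6 is highest for 8 genes, by 3.12 for *Socs1* and 1.89 for *Stat2*, and lies at -0.44 for *Ifngr2*.

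The 9 genes are transcribed at very different levels in the heart. Compared per length, in CPM per kb of the gene length in the deposited table, the Ctrl means were 44 for *Ifngr2*, 20.3 for *Ifngr1*, 13.9 for *Stat3*, 7.33 for *Jak2*, 5.8 for *Ifnar2*, 4.66 for *Ifnar1*, 3.59 for *Stat2*, 1.33 for *Socs3* and 0.214 for *Socs1*. The ranges of neighbours in this order did not overlap among the 8 Ctrl hearts, except for *Ifnar1* (4.36 to 5.1) and *Stat2* (3.1 to 4.37). Both chains of the interferon-gamma receptor were thus above both chains of the type I receptor. However, *Gm21970*, with a mean of 0 counts, overlaps 13869 bases of *Ifnar2* on the same strand. How reads shared by 2 genes were counted is not given in the sources used here, so *Ifnar2* may be undercounted here and in ratios below. The inhibitors were lowest, and *Socs1* rested on 7 to 228 reads per heart, so its values carry the largest counting error.

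Of the receptor chains, 3 lie side by side on chromosome 16 in the order *Ifnar2* (chr16:91169671-91202477), *Ifnar1* (chr16:91282126-91304329) and *Ifngr2* (chr16:91343960-91362511), all on the plus strand of GRCm39. *Il10rb*, which encodes the shared chain of the interleukin-10 and interferon-lambda receptors, sits between *Ifnar2* and *Ifnar1*. *Ifngr1* is on chromosome 10 (chr10:19467697-19485977). *Ifnar1*, the chain that recruits TYK2, was at 25.9 to 30.3 CPM in Ctrl (median 27.7) and 25.9 to 44 in hMut (median 29.6). Only replicate 6 (44 CPM) and replicate 9 (33.1) rose clear of the Ctrl range, while another hMut heart, at 30.4, was just above the highest Ctrl heart. Means were 30.8 ± 5.41 CPM for hMut (SD, n = 9) and 27.7 ± 1.26 for Ctrl (SD, n = 8), or 0.15 as a log2 fold change (SE 0.08, adjusted p = 0.24, edgeR). *Ifnar2*, the chain with the higher affinity for the ligand, was at 17.1 to 20.7 CPM in Ctrl (median 19.4) and 18.6 to 26.5 in hMut (median 20.3). Replicate 6 (26.5 CPM) and replicate 9 (23.8) were again the highest, followed by a heart at 21.8, and the remaining 6 hMut hearts lay within the Ctrl range as printed. For hMut over Ctrl this gave a log2 fold change of 0.13 (SE 0.07, adjusted p = 0.235, edgeR). Leaving out replicates 6 and 9 left 0.04 for each of the pair (adjusted p = 0.636 for *Ifnar1* and 0.672 for *Ifnar2*, edgeR, 7 against 8 hearts).

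*Ifngr1*, the ligand-binding chain of the interferon-gamma receptor, had the smallest p of the 9 genes and depended least on the 2 hearts. It was at 51.6 to 66 CPM in Ctrl (median 56.9) and 57.4 to 78.1 in hMut (median 63). The 4 hMut hearts above every Ctrl heart were replicate 6 (78.1 CPM), replicate 8 (73.5), replicate 9 (70.5) and replicate 7 (67.5), and no hMut heart was below the Ctrl median. Means were 65.7 ± 7.18 CPM for hMut (SD, n = 9) and 57.9 ± 4.59 for Ctrl (SD, n = 8), or 0.18 as a log2 fold change (SE 0.06, unadjusted p = 0.0119, adjusted p = 0.104, edgeR). Without replicates 6 and 9 it was 0.13 (adjusted p = 0.258, edgeR). It passed the threshold when hMut replicate 2, the heart with the lowest hMut value (57.4 CPM), was left out (0.2, adjusted p = 0.0492, edgeR), one of 17 such omissions.

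*Ifngr2*, the signalling chain that carries JAK2, went the other way in the hearts that stood apart. It was at 149 to 174 CPM in Ctrl (median 168) and 122 to 187 in hMut (median 154). Replicate 6 (122 CPM) and replicate 9 (128) were the lowest hearts, a further hMut heart at 145 was also below every Ctrl heart, and replicate 2 at 187 was above them all. Its log2 fold change was -0.11 (SE 0.07, adjusted p = 0.328, edgeR) and -0.03 without replicates 6 and 9. Scaled on cardiomyocyte markers it was 0.12, below the shift of all genes.

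Because the 2 chains of one receptor are read in the same library, the ratio of their reads does not depend on the scaling. This comparison was chosen after the values were seen. *Ifngr1* reads per *Ifngr2* read ranged from 0.305 to 0.385 in Ctrl and from 0.307 to 0.639 in hMut, with 0.639 in replicate 6, 0.552 in replicate 9, 0.48 in replicate 8, 0.433 in replicate 5 and 0.401 in replicate 7. Those 5 hMut hearts were above every Ctrl heart, and the other 4 lay within the Ctrl range as printed. Means were 0.437 ± 0.104 for hMut (SD, n = 9) and 0.35 ± 0.0271 for Ctrl (SD, n = 8), a difference of 0.29 in log2 (two-sided exact permutation p = 0.0257 over 24310 splits, adjusted p = 0.0514 over the 2 receptors). Without replicates 6 and 9 the difference was 0.16 (exact permutation p = 0.0819, adjusted p = 0.164). For the type I receptor, *Ifnar1* reads per *Ifnar2* read were 1.46 ± 0.153 in hMut and 1.44 ± 0.0797 in Ctrl, a difference of 0.02 in log2 (exact permutation p = 0.78, n = 9 and 8). Neither ratio passed the threshold after adjustment.

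**Figure D2:**
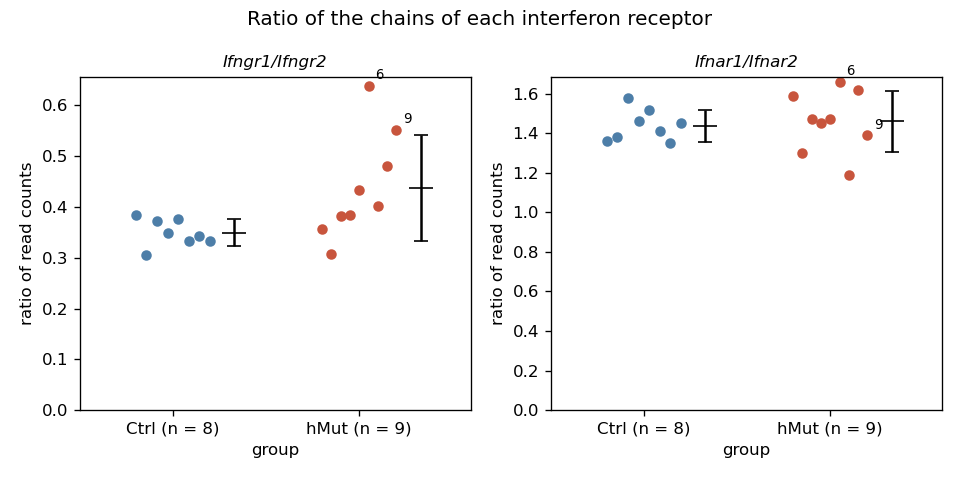
Reads of one receptor chain per read of its partner in each heart (vertical axes, starting at 0), for interferon-gamma (left) and type I interferon (right), in Ctrl and hMut. Points are hearts, the crosses with bars are the mean and SD, and 6 and 9 mark hMut replicates 6 and 9; for *Ifngr1* over *Ifngr2* these are the highest hearts at 0.639 and 0.552, and for *Ifnar1* over *Ifnar2* the groups cover each other.

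*Jak2* (chr19:29229228-29290480) encodes the kinase bound to *Ifngr2* and to gp130-type and growth factor receptors. It was at 34.5 to 39.5 CPM in Ctrl (median 36.8) and 35 to 48.3 in hMut (median 40). A total of 6 hMut hearts were above every Ctrl heart, but 5 of them lay between 39.7 and 40.7 CPM, close to the highest Ctrl heart, and only replicate 6 (48.3) was well above. Means were 39.6 ± 3.93 CPM for hMut (SD, n = 9) and 36.9 ± 1.61 for Ctrl (SD, n = 8), or 0.1 as a log2 fold change (SE 0.05, adjusted p = 0.234, edgeR), and 0.05 without replicates 6 and 9 (adjusted p = 0.566).

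*Stat2* (chr10:128106428-128128718) encodes a STAT that works with IRF9 to carry the type I interferon signal, and it is itself induced by interferon. Among the 9 genes it differed most between hearts next to *Socs1*. It was at 18.4 to 25.9 CPM in Ctrl (median 21) and 16.9 to 78.8 in hMut (median 20.6). Replicate 6 reached 78.8 CPM, which is 3.71 times the Ctrl mean, and replicate 9 reached 34.3, which is 1.61 times. The other 7 hMut hearts (16.9 to 23.9 CPM) reached no higher than the Ctrl hearts. The log2 fold change of 0.42 (SE 0.26, adjusted p = 0.295, edgeR) thus rested on these hearts and was -0.06 without them (adjusted p = 0.734), and -0.01 in limma-voom, where quality weights gave replicate 6 a weight of 0.166 and replicate 9 one of 0.299.

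*Stat3* (chr11:100775924-100830366) encodes the STAT of interleukin-6 and the other gp130 cytokines. It was at 119 to 144 CPM in Ctrl (median 130) and 101 to 224 in hMut (median 135). Replicate 6 (224 CPM, 1.7 times the Ctrl mean), replicate 9 (154) and replicate 5 (152) were above every Ctrl heart and replicate 2 (101) was below them all. Means were 143 ± 34.6 CPM for hMut (SD, n = 9) and 132 ± 9.53 for Ctrl (SD, n = 8), with a log2 fold change of 0.12 (SE 0.11, adjusted p = 0.521, edgeR) and of -0.02 without replicates 6 and 9. The last 72 bases of *Stat3* overlap *Stat5a* on the opposite strand, and whether the counting used strand is not given in the sources used here.

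*Socs1* (chr16:10600104-10603400) encodes the inhibitor that blocks JAK kinases downstream of both interferon receptors. It was at 0.221 to 0.92 CPM in Ctrl (median 0.648, 7 to 32 reads) and 0.419 to 5.4 CPM in hMut (median 0.825, 17 to 228 reads). Replicate 6 had 228 reads (5.4 CPM), 8.7 times the Ctrl mean, and replicate 9 had 59 reads (1.33 CPM), 2.14 times. Replicate 4 (1 CPM, 42 reads) and replicate 1 (0.947 CPM, 35 reads) were also above every Ctrl heart, but by a few reads. Over all hearts the log2 fold change was 1.1 (SE 0.46, unadjusted p = 0.0279, adjusted p = 0.149, edgeR) and 0.26 (SE 0.26, adjusted p = 0.631) without replicates 6 and 9.

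*Socs3* (chr11:117856905-117860873) encodes the inhibitor that binds gp130 and is the usual product of STAT3 signalling. It was at 2.86 to 5.14 CPM in Ctrl (median 3.77) and 3.44 to 11.9 in hMut (median 3.94). Replicate 6 (11.9 CPM, 503 reads) was at 3.09 times the Ctrl mean and replicate 9 (5.68 CPM, 252 reads) at 1.47 times, and the other 7 hMut hearts (3.44 to 4.87) lay within the Ctrl range. Over all hearts the fit gave a log2 fold change of 0.4 (SE 0.22, adjusted p = 0.265, edgeR) and 0.05 (adjusted p = 0.864) without replicates 6 and 9.

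**Figure D3:**
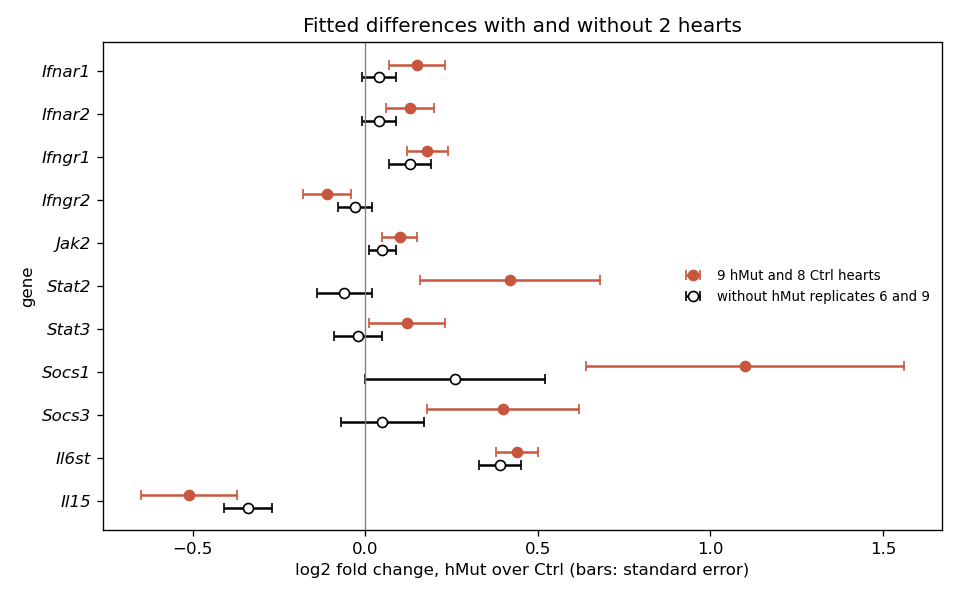
Log2 fold change of hMut over Ctrl with its standard error (horizontal axis) for the 9 genes and for *Il6st* and *Il15* (vertical axis), fitted with all 17 hearts (filled) and without hMut replicates 6 and 9 (open). *Socs1* moves from 1.1 to 0.26, *Stat2* from 0.42 to -0.06 and *Socs3* from 0.4 to 0.05, while *Il6st* moves from 0.44 to 0.39.

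The 3 genes with the largest fold in replicate 6, *Socs1*, *Stat2* and *Socs3*, are known targets of the relay, and their promoters are shown for that reason. Each runs from 250 bases before to 50 bases after the start of the canonical GENCODE vM39 transcript, read 5′ to 3′ on the gene's strand from GRCm39. Capitals mark matches to the STAT dimer motif GAS (TTCNNNGAA, its own reverse complement) or to the core of the interferon-stimulated response element (ISRE, GAAANNGAAA, searched on both strands), and no matches overlapped. Positions count from 1 at the first transcribed base, with -1 just before it. The deposited table starts these genes elsewhere, 475 bases downstream for *Socs1*, 76 downstream for *Stat2* and 750 upstream for *Socs3*, so other start sites are annotated.
Socs1, chr16:10603826-10604125, minus strand: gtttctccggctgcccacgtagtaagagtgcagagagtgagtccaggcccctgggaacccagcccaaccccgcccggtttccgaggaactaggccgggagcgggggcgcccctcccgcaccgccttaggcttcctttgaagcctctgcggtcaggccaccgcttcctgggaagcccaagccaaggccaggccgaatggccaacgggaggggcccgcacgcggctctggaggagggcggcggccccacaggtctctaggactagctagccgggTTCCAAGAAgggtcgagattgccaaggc
Stat2, chr10:128106102-128106401, plus strand: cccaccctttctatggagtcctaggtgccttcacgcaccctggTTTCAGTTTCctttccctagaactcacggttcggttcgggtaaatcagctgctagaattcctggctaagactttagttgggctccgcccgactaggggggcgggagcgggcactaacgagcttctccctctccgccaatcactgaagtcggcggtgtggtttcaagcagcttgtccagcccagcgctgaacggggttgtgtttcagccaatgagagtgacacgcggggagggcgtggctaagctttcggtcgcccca
Socs3, chr11:117860074-117860373, minus strand: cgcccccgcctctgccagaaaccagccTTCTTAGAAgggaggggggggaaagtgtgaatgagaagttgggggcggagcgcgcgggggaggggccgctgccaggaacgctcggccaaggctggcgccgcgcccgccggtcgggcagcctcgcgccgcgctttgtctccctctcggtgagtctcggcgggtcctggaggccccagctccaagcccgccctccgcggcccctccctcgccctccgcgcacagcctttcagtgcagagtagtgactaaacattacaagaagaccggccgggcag

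The *Stat2* window holds 1 ISRE core at position -207 from the start site, on the strand opposite to the gene, and no GAS. The *Socs3* window holds 1 GAS at -223 (TTCTTAGAA) and the *Socs1* window 1 GAS at 23 (TTCCAAGAA), downstream of the start. Among the windows of the other members, *Ifnar2* holds TTCCTGGAA at -214 and *Jak2* holds TTCGCAGAA at -138, and those of *Ifnar1*, *Ifngr1*, *Ifngr2* and *Stat3* hold neither motif. In all, 4 of the 9 windows hold a GAS, beside 8.81% of 21770 protein-coding windows of the same length, and 1 of 9 holds an ISRE core, beside 3.84%. These are matches of letters in a short window, and no binding was measured.

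The other genes of the relay were taken from a list of 69, of which 54 were tested. Only *Il6st* and *Il15* passed the threshold (2 of 54, beside 4.62% of all tested genes), *Il6st* higher and *Il15* lower in hMut, and the median log2 fold change of the 54 was 0.02. *Il6st* (chr13:112600604-112646620) encodes gp130, the receptor chain shared by interleukin-6, interleukin-11, LIF, oncostatin M and cardiotrophin, through which STAT3 is activated in the heart. It was at 207 to 237 CPM in Ctrl (median 215) and 245 to 333 in hMut (median 306), so the groups did not overlap. Replicate 6 (332 CPM) and replicate 9 (333) were the highest hearts, but the other 7 hMut hearts, at 245 to 325, were also above every Ctrl heart. Means were 295 ± 33.9 CPM for hMut (SD, n = 9) and 217 ± 9.88 for Ctrl (SD, n = 8), or 0.44 as a log2 fold change (SE 0.06, adjusted p = 0.000463, edgeR), and 0.39 without replicates 6 and 9 (adjusted p = 0.000772). It stayed past the threshold in 28 of 28 alternatives, with adjusted p up to 0.0121.

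*Il15* (chr8:83058261-83129851) encodes a cytokine that sustains natural killer cells and memory T cells and is presented by the cell that makes it. It was at 32.5 to 47.6 CPM in Ctrl (median 41.9) and 16.5 to 38.3 in hMut (median 30.3). Replicate 9 (16.5 CPM) and replicate 6 (16.6) were far below the others (28.7 to 38.3), and in 5 of 9 hMut hearts the level was under that of every Ctrl heart. Its log2 fold change was -0.51 (SE 0.14, adjusted p = 0.0489, edgeR) and -0.34 (SE 0.07, adjusted p = 0.0152) without replicates 6 and 9. The call was close to the threshold and held in 9 of 28 alternatives, with adjusted p up to 0.118.

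By role, none of the 3 other kinases passed, and *Jak1*, the kinase shared by both interferon receptors, had the smallest p (log2 fold change -0.07, adjusted p = 0.339, edgeR; -0.08 without replicates 6 and 9). Among other STAT genes, *Stat5b*, a STAT of growth hormone and prolactin, had the smallest p (-0.13, adjusted p = 0.105, and -0.08 without the 2 hearts). Of the 6 other SOCS genes none passed, and *Socs2*, an inhibitor of growth hormone signalling, was first (-0.21, adjusted p = 0.0757, and -0.18 without the 2 hearts), with 6 of 9 hMut hearts lower than every Ctrl heart. Of the 14 other negative regulators none passed, and *Ptpn11*, the phosphatase SHP2, was first (0.15, adjusted p = 0.076, and 0.16 without them). Of 21 other receptor chains, *Il6st* was the one past the threshold. *Il10rb*, named after its values were seen because it lies in the chromosome 16 cluster, was at 56.9 to 79.9 CPM in hMut and 69 to 87.6 in Ctrl (log2 fold change -0.2, adjusted p = 0.0739, edgeR, and -0.15 without them). DESeq2 and limma-voom each called *Socs2*, *Ptpn11* and *Il10rb*.

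*Irf9*, also named after its values were seen, encodes the DNA-binding partner of STAT2 and showed the pattern of *Stat2*. It was at 18 to 22.7 CPM in Ctrl (median 20.5), 63.1 in replicate 6 and 33.1 in replicate 9, against 17.4 to 23.6 in the others. It did not pass the threshold (log2 fold change 0.34, adjusted p = 0.316, edgeR), and without replicates 6 and 9 the value was -0.05.

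**Figure D4:**
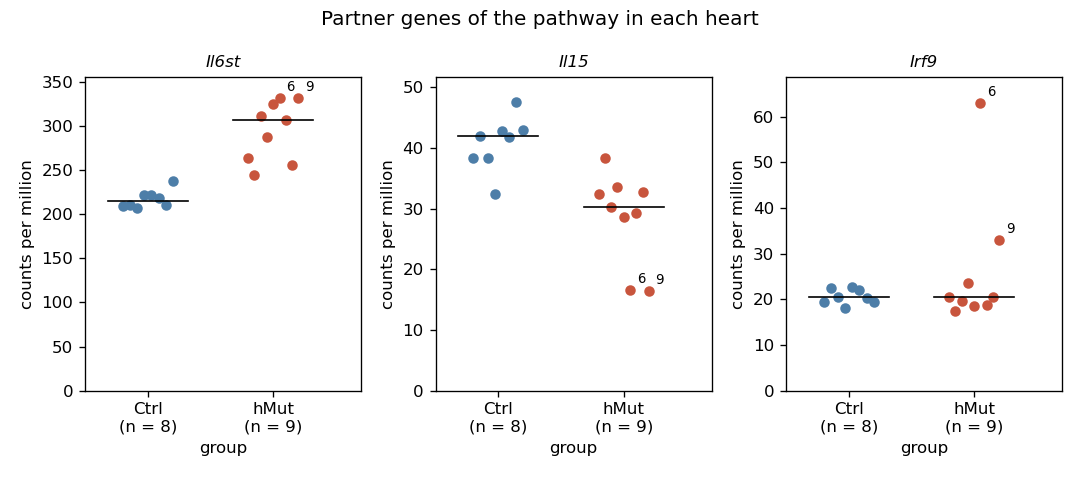
CPM in each heart (vertical axes, starting at 0) of *Il6st*, *Il15* and *Irf9* in Ctrl and hMut. Points are hearts, lines are group medians, and 6 and 9 mark hMut replicates 6 and 9; *Il6st* separates all 9 hMut hearts from Ctrl, whereas *Irf9* is highest in these 2 hearts, at 63.1 and 33.1 CPM.

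Of 19 ligand genes, 5 had enough reads to be tested, among them *Il15* and *Ctf1*, the cardiotrophin gene (104 to 332 reads per heart). *Ifnb1*, which encodes interferon-beta, had at most 3 reads in any heart and 0 in 14 of 17. *Ifng*, which encodes interferon-gamma and is made by T and natural killer cells, had 54 reads (1.28 CPM) in replicate 6, 1 in replicate 9, at most 1 in the other hMut hearts and 0 to 2 in Ctrl. *Il6*, which encodes interleukin-6, had 14 reads in replicate 6 and 20 in replicate 9, at most 4 in the other hMut hearts and 0 to 5 in Ctrl. With so few reads, differences among the other hearts were not detectable.

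Genes known to respond to each branch were read beside the relay. The lists were chosen by name, and whether a gene responds to only 1 branch was not tested. For type I interferon, 0 of 20 targets passed the threshold (4.62% of all genes did), and their median log2 fold change was 0.67. All 20 were above every Ctrl heart in replicate 6 (31.1% of all tested genes were) and in replicate 9 (27.9%), and 13 were in replicate 4 (14.7%). The smallest p were those of *Irf7*, a factor that amplifies interferon production (1.72, adjusted p = 0.0727), *Oas3*, an antiviral RNA sensor (1.82, adjusted p = 0.0882), and *Cxcl10*, a T cell chemokine (2.03, adjusted p = 0.126, edgeR). Without replicates 6 and 9 their log2 fold changes were 0.34, 0.48 and 0.22.

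For interferon-gamma, 0 of 17 targets passed and the median was 0.81. All 17 were above every Ctrl heart in replicate 6 (31.1% of all tested genes), and 6 of 17 were in replicate 9, a share close to that of all tested genes (27.9%). As log2 of CPM over the Ctrl mean, the median of the 17 was 3.05 in replicate 6 and 0.33 in replicate 9, where Ctrl hearts reached 0.51. For the type I list the same medians were 2.43 and 1.15, with Ctrl hearts up to 0.17. The smallest p were those of *Cxcl9*, a chemokine (1.62, adjusted p = 0.136), *Irgm1*, a GTPase of the IRG family (1.59, adjusted p = 0.149), and *Gbp3*, a guanylate-binding protein (0.93, adjusted p = 0.169, edgeR). Without replicates 6 and 9 they were -0.02, -0.16 and 0.05. *Irgm1* had 481 CPM in replicate 6, while replicate 9 (37.1) lay below the highest Ctrl heart (48.8).

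Of 20 tested genes of the STAT3 and acute-phase list (23 listed), 2 rose and 1 fell (4.62% of all tested genes were called), and the median was 0.19. *Myc*, a growth transcription factor, was at 1.73 to 4.88 CPM in Ctrl (median 3.38) and 3.49 to 16.8 in hMut (median 8.43), with 8 of 9 hMut hearts above every Ctrl heart (log2 fold change 1.52, SE 0.27, adjusted p = 0.00359, edgeR). *Hspb1*, the small heat shock protein HSP25, was at 97.2 to 127 CPM in Ctrl and 116 to 179 in hMut (0.39, SE 0.08, adjusted p = 0.00973), also with 8 of 9 above. *Mcl1*, a survival factor of the BCL2 family, was at 214 to 264 CPM in Ctrl and 188 to 226 in hMut (-0.19, SE 0.05, adjusted p = 0.0251). Each kept its sign and its call without replicates 6 and 9 (1.23, 0.32 and -0.2). All 3 genes also respond to signals other than STAT3. *Myc* and *Hspb1* passed in 27 of 28 alternatives (adjusted p up to 0.0658 and 0.106, with the replicate block) and *Mcl1* in 21 of 28 (up to 0.575), and *Mcl1* was at 0.07 when scaled on cardiomyocyte markers. *Mcl1* lost its call without Ctrl replicate 1, 6 or 8 or hMut replicate 5 (adjusted p from 0.0513 to 0.0553, edgeR).

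**Figure D5:**
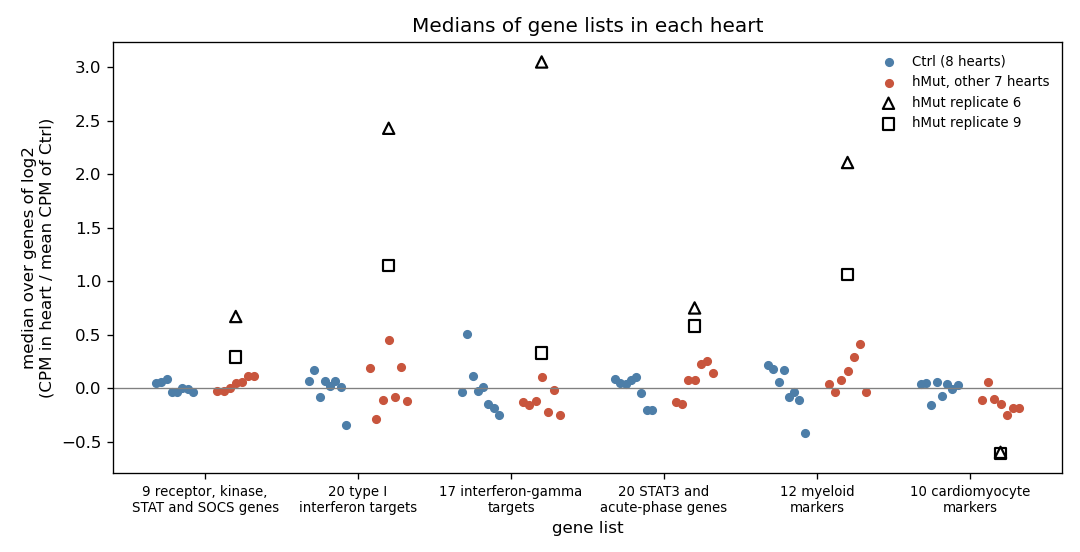
Median over the genes of a list of log2 of CPM over the Ctrl mean (vertical axis) in each heart, for the 9 relay genes, 3 lists of targets and 2 lists of cell markers (horizontal axis). Replicate 6 (triangle) lies at 3.05 for interferon-gamma targets, 2.43 for type I targets, 2.11 for myeloid markers and -0.6 for cardiomyocyte markers, and replicate 9 (square) at 0.33, 1.15, 1.06 and -0.61.

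For each of the 9 genes, the tested genes most like it were found by Spearman's rho of log2 CPM over the 17 hearts, which share library depth, tissue makeup and the 2 hearts that stood apart, so these values are a description. The genes named are among the highest of all tested genes, so high values follow in part from this choice. The 15 hearts were part of the same choice, so their rho is no separate check. *Stat2* was most like *Emp3* (rho 0.94, Pearson's r 0.92, and rho 0.92 over the 15 hearts left without replicates 6 and 9). *Jak2* was most like *Anxa1* (0.93, r 0.94, and 0.89 over 15), and *Ifngr2* was most like *Ndufab1*, which encodes the mitochondrial acyl carrier protein (0.95, r 0.96, and 0.92 over 15). *Ifnar2* was most like *Nmi*, which encodes a STAT-interacting protein (0.92, r 0.91, and 0.88), and *Ifnar1* most like *Rassf2* (0.92, r 0.94, and 0.89). *Ifngr1* was most like *Atf3*, a stress-induced transcription factor (0.9, r 0.81, and 0.88). *Socs3* was most like *B4galnt1* (0.91, r 0.94, and 0.87), *Stat3* most like *Ctsk* (0.86, r 0.9, and 0.8), and *Socs1* most like *Golt1b* (0.87, r 0.62, and 0.85). Also near *Socs1* was *Trac*, the constant segment of the T cell receptor alpha chain (0.86, r 0.94, and 0.81). Between the members, *Ifngr1* and *Jak2* were the most alike (rho 0.73 over 17 hearts, 0.61 over 15), and *Ifngr2* ran opposite to *Stat3* (-0.69 over 17 and -0.54 over 15).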

How the data were processed

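Heart tissue of 9 hMut and 8 Ctrl mice was profiled by RNA-seq, with 1 library per mouse. Per the labels and the submitters' processing notes, RNA was extracted with an RNeasy kit, poly(A) RNA was sequenced on a NovaSeq X Plus, and fastp, HISAT2 (2.2.1, GRCm39) and featureCounts (2.0.6) were used. The values deposited by the authors are raw counts per gene, beside a gene length used for levels per kb. The strand setting is not given in the sources used here.

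Groups came from the library names. Counts were TMM-scaled and tested with edgeR 4.0.16 (R 4.3.3; filterByExpr, quasi-likelihood F test, genotype as the only term, Benjamini-Hochberg over 16195 genes, threshold 0.05), and the fit was tested on simulated data. The SE is the log2 fold change over the square root of F. Receptor ratios were compared by exact permutation. The members and lists were chosen with earlier results of these data known. Beyond the members, named genes are relay genes past the threshold or with the smallest p of their role, the 3 with the smallest p of each target list, and genes among the 3 most like each member. Alternatives were DESeq2 1.42.0, limma 3.58.1, other scalings and filters, sex (read from the counts), the replicate number as a block, and hearts left out. Promoters were read from GRCm39 with GENCODE vM39. A gene of the relay is not reported here.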

Additional observations from a re-analysis of the deposited data

Results flagged for a closer look

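In 6 of the 9 genes, hMut replicate 6 was separated from the nearest other hMut heart by a gap that, as a share of the group's range, exceeds the critical value of Dixon's criterion. The values in that heart were 44 CPM for *Ifnar1*, 48.3 for *Jak2*, 78.8 for *Stat2*, 224 for *Stat3*, 5.4 for *Socs1* and 11.9 for *Socs3*. The gap was 0.82 of the whole hMut range for *Socs1*, 0.74 for *Socs3* and 0.72 for *Stat2*, and between 0.57 and 0.6 for the other 3. A total of 22 groups were examined, the 9 genes and 2 receptor ratios in each genotype, and chance alone marks about 5% of groups. The criterion was not applied to all tested genes, so the share it would mark over them in this heart is not known. Of all tested genes, 31.1% were above every Ctrl heart in replicate 6. The 6 values come from 1 heart and are not independent. In that heart the 12 myeloid markers summed to 1370 CPM against at most 442 in the hMut hearts other than replicates 6 and 9, and their part in these values was not tested.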

How the results depend on the processing

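The number of the 9 genes past the threshold stayed at 0 under DESeq2, limma-voom with quality weights, RLE and upper-quartile scaling, both other filters, without mtDNA-encoded genes, with sex as a term, with the replicate block and without hMut replicates 6 and 9. Under the filter of a mean of at least 50 counts, *Socs1* was not tested. Leaving out each heart in turn gave 0 to 1, and scaling on cardiomyocyte markers gave 6. That scaling called 6147 genes, 6050 higher and 97 lower against 564 and 185 with TMM, and 22 other genes of the relay; it turned *Ifngr2* to 0.12, *Jak1* to 0.19, *Stat5b* to 0.11, *Socs2* to 0.03, *Il10rb* to 0.04 and *Mcl1* to 0.07. The count over all genes was 1517 with DESeq2, 2081 with limma-voom, 463 without a filter, 185 with the replicate block, 431 without hMut replicates 6 and 9, and 395 to 1792 with single hearts left out. Of the other relay genes, 7 were called by DESeq2 and 8 by limma-voom, and 1 with RLE or upper-quartile scaling, without a filter, without mtDNA-encoded genes, with sex as a term or with the replicate block, and 1 to 4 with single hearts left out. Signs also turned in limma-voom (*Stat2* and *Irf9* -0.01, *Irgm1* -0.04), in DESeq2 (*Irgm1* -0.06), without hMut replicate 6 (*Irgm1*) and without replicates 6 and 9 (*Stat2* -0.06, *Stat3* -0.02, *Irf9* -0.05, *Cxcl9* -0.02, *Irgm1* -0.16). With single hearts left out *Irgm1* ranged from -0.04 to 1.81. The cause was not tested. No pairing of the hearts by replicate number was seen in the counts, and whether a shared number marks a litter or batch is not known. Same-numbered hearts correlated between -0.23 and 0.34 in their deviations, and 1 of 8 numbers correlated best with its own.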
